A study of Mus musculus with 16 samples.

Results

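Between the hippocampus arrays with the most and the least transthyretin RNA, many of the largest differences were in genes of the choroid plexus epithelium and of motile cilia. Transthyretin (Ttr) carries thyroid hormone and, through retinol-binding protein, retinol, and in the brain it is known as a product of the choroid plexus. All 16 Illumina bead arrays were ranked by the authors' normalized value of 1 Ttr probe. The 4 highest arrays form the Ttr-high set, the 4 lowest form the Ttr-low set, and the other 8 are called the middle arrays. Ttr itself chose the sets, so every difference between them is given here as a description without a test.

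The choroid plexus is a folded epithelium that hangs in the brain ventricles and secretes cerebrospinal fluid. In the lateral ventricle it is attached along the fimbria, beside the hippocampus. Its cells carry water channels, ion channels, leaky tight junctions and secreted carrier proteins. The ependyma, the ciliated cell layer that lines the ventricles, is its neighbour and moves the fluid with motile cilia.

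The RNA came from hippocampi of male C57BL/6J mice, 2 or 12 months old. They had received vehicle (ethanol, cremophor and saline) or Δ9-tetrahydrocannabinol (THC), the main psychoactive cannabinoid of Cannabis, at 3 mg/kg/day for 28 days from an osmotic minipump under the skin. All animals went through a water maze test between days 33 and 41 and were killed on day 46. There were 3 arrays of 2-month vehicle mice, 3 of 2-month THC mice, 5 of 12-month vehicle mice and 5 of 12-month THC mice. Replicate numbers only name arrays within a group, and the labels do not say which animal, or whether 1 animal, each array holds, so the spread and the p-values below cover differences between samples that may be technical. Between 41.1% and 45.9% of the probes of an array were detected.

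The Ttr-high set held 2-month vehicle replicate 2, 12-month THC replicate 5, 12-month vehicle replicate 3 and 12-month THC replicate 1. The Ttr-low set held 12-month vehicle replicate 4, 12-month vehicle replicate 2, 12-month THC replicate 2 and 12-month vehicle replicate 1. Values of the 4 arrays of a set are given in these orders throughout. The sets were thus not balanced, since 1 high array and no low array came from 2-month mice, and 2 high arrays and 1 low array came from THC mice. The 16 arrays lay on 4 slides, and the 4 arrays of slide 1 stood apart on the first principal component (-50.2 to -33.7, against -0.869 to 31.3 for the others). Slide 1 held 1 high and 2 low arrays, and slide 2 held 2 high and 1 low array. As a check of the tissue, the mean of the CA1 pyramidal cell list was 10.31 to 10.49 log2 units on the high arrays and 10.30 to 10.83 on the low arrays. That of the dentate granule cell list was 6.02 to 8.13 on the high arrays, lowest on 2-month vehicle replicate 2, and 7.22 to 8.64 on the low arrays.

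After background correction and normalization Ttr stood at 14.48, 14.30, 13.90 and 13.76 log2 units on the high arrays and at 6.96, 6.11, 5.90 and 5.52 on the low arrays. The middle arrays lay between 7.62 and 12.85 with a median of 10.72. The difference between the set means was 7.99 log2 units, or 254-fold. In the authors' values the step from the fourth to the fifth array was 0.90 log2 units and the step from the twelfth to the thirteenth was 0.43, so the sets are the ends of a wide range and not separate classes. Ttr was detected on all 16 arrays.

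**Figure D1:**
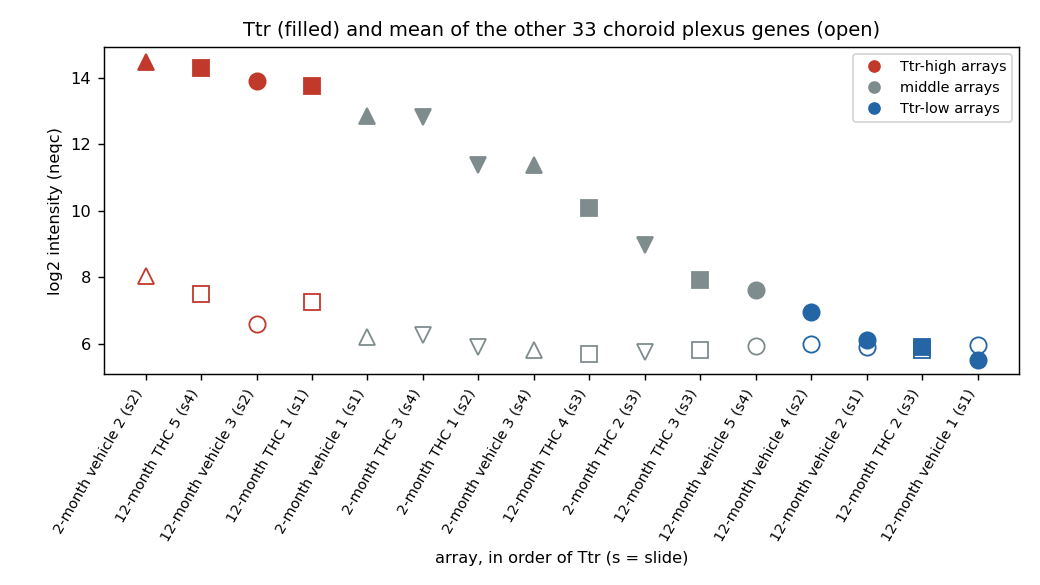
Log2 intensity of Ttr (filled symbols) and the mean of the other 33 tested choroid plexus genes (open symbols) on the 16 arrays in order of Ttr, with circles for 12-month vehicle, squares for 12-month THC, upward triangles for 2-month vehicle and downward triangles for 2-month THC. Ttr fell in steps from 14.48 to 5.52, while the other choroid plexus genes were at 6.58 to 8.02 on the Ttr-high arrays and at 5.70 to 6.26 on all others.

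The other choroid plexus genes did not descend evenly with Ttr. Their mean over 33 tested genes was 8.02, 7.48, 6.58 and 7.25 on the high arrays and 6.00, 5.90, 5.81 and 5.97 on the low arrays. On the middle arrays it ran from 5.70 to 6.26. The 12-month vehicle array with the lowest Ttr of all, replicate 1, was therefore at 5.97, within the range of the middle arrays.

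A gene is called higher or lower here when the set means differed by at least 1 log2 unit and the 2 sets of 4 values did not overlap. Of 12020 genes tested, 64, Ttr among them, were higher in the Ttr-high arrays (0.532%) and 11 were lower (0.0915%). The median difference over all tested genes was -0.00855, which quantile normalization holds near 0 in any case. Without a minimum size, 255 genes were higher (2.12%) and 215 lower (1.79%) with no overlap. Because the arrays were chosen by a readout of the same contrast, nothing is read from these shares. In whole tissue, more cells of a type and more RNA per cell cannot be told apart. Quantile normalization without background correction called 16 genes higher and 3 lower, all of them among the 64 and the 11, and gave smaller differences (3.13 for Clic6, 1.35 for Aqp1 and -1.32 for Tshz2, against 4.62, 2.91 and -1.74 here). The count of lower genes was 27 without 12-month THC replicate 2 and 17 without 2-month vehicle replicate 2.

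The lists of choroid plexus genes together named 46 genes, of which 40 were on the array and 34 were tested. Of these 34, 17 (with Ttr) were higher, none was lower, and the median difference was 1.17 log2 units. The filter on detection required 3 arrays, and 10 of the 34 passed it only through the Ttr-high arrays, which favours a positive difference in them. Among these 10 were the called genes Kcne2, F5, Folr1, Slc16a8, Cldn2 and Steap1. Slco1a5 (0.13) and Htr2c (0.26) were also among them, and their sets overlapped. Only 9 of the 34 were called under quantile normalization alone.

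Of 8 tested genes of secreted proteins 6 were higher, with a median difference of 2.74, and 1 of the 8 passed the filter only through the Ttr-high arrays. Apart from Ttr, which chose the sets, 5 of 7 were higher, with a median of 2.68. Ecrg4, which encodes the secreted peptide precursor augurin, was at 10.18, 9.48, 7.93 and 9.16 on the high arrays and at 6.25, 6.38, 5.26 and 6.45 on the low arrays, a difference of 3.10. Klotho (Kl), a coreceptor for a fibroblast growth factor that is also shed, was at 10.38, 9.67, 8.13 and 9.36 against 6.10, 6.35, 6.97 and 6.91, a difference of 2.80. For both genes 12-month vehicle replicate 3 was the lowest of the high arrays, and the sets lay well apart.

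Wfdc2, a secreted protein with whey acidic protein domains, differed by 2.94, and Sostdc1, a secreted antagonist of BMP and Wnt signals, by 2.68. Coagulation factor V (F5) was at 7.78, 6.62, 5.29 and 6.45 on the high arrays and was not detected on any low array, where its signal was 4.44 to 4.45, so this probe gives a bound of at least 3.20-fold. The other F5 probe differed less, by 0.79 log2 units. The remaining secreted genes were the growth factor Igf2 and the binding protein Igfbp2, whose differences were 0.26 and 0.63. Igf2 was at 11.84, 11.48, 11.38 and 11.59 on the high arrays and at 11.53, 11.39, 10.79 and 11.55 on the low arrays, so its sets overlapped.

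Of 14 tested transporters and channels 6 were higher, with a median difference of 0.87. Of the 14, 6 passed the filter only through the Ttr-high arrays, with the called genes Kcne2, Folr1 and Slc16a8 among them. Clic6, a chloride intracellular channel protein abundant in choroid plexus, was at 10.92, 10.28, 8.54 and 10.26 on the high arrays and at 5.78, 5.71, 4.62 and 5.40 on the low arrays. This difference of 4.62 log2 units, or 24.7-fold, was the largest after Ttr. The middle arrays held Clic6 between 4.57 and 7.95 with a median of 5.27, so most of them were as low as the Ttr-low arrays.

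The water channel Aqp1, which lies in the apical membrane of the choroid plexus, was at 8.26, 7.92, 5.88 and 7.70 on the high arrays. It was not detected on any low array, where its signal was 4.46 to 4.62, so this probe gives a bound of at least 5.98-fold. Its 2 other probes differed less, by 0.46 and 1.33. The folate receptor Folr1 was likewise not detected on any low array, and its probe gives a bound of at least 2.54-fold. The other Folr1 probe differed by 1.66 log2 units.

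Kcne2, an auxiliary subunit of potassium channels, was at 8.04, 7.14, 5.53 and 6.54 against 4.40, 4.84, 4.40 and 4.92. The monocarboxylate transporter Slc16a8 differed by 1.45 and the carbonic anhydrase Car12 by 1.23, both without overlap. The sulfate transporter Slc13a4 differed by 0.25 and the organic anion transporter Slc22a8 by -0.22, and both are also known from the meninges.

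Of 12 other tested choroid plexus genes 5 were higher, with a median of 1.11, and 3 of the 12 passed the filter only through the Ttr-high arrays. Claudin 2 (Cldn2), the claudin of leaky epithelia, was at 8.21, 7.48, 5.73 and 7.22 on the high arrays. It was not detected on the low arrays, so this probe gives a bound of at least 4.93-fold. The other Cldn2 probe differed by 2.29 log2 units. Calml4, a calmodulin-like protein, differed by 1.93. The transcription factor Otx2, which specifies choroid plexus, was at 7.88, 7.63, 5.96 and 7.24 on the high arrays and at 7.98, 4.89, 4.48 and 4.48 on the low arrays.

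The Otx2 sets therefore overlapped through 12-month vehicle replicate 4 alone. That array also held the habenula gene Pou4f1 at 6.69, against 4.27 to 4.56 on the other arrays of both sets. Otx2 is known from the diencephalon as well, and the part of such tissue in this value was not tested. The serotonin receptor Htr2c, carried by choroid plexus and by neurons, differed by 0.26.

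Genes of motile cilia formed the other group. Of 31 genes in the list 25 were on the array and 19 were tested, 4 of them passing the filter only through the Ttr-high arrays. Of the 19, 6 were higher and none lower, with a median of 0.71. Dynlrb2, a dynein light chain, was at 8.75, 8.21, 6.67 and 8.19 on the high arrays and at 5.38, 5.09, 4.64 and 5.07 on the low arrays, a difference of 2.91.

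Mlf1, a ciliary list member, was at 7.47, 6.49, 5.55 and 6.34 against 4.54, 5.06, 4.60 and 4.66. Rsph1, a radial spoke head protein of the axoneme, differed by 1.65, and Rsph4a, another radial spoke protein, by 1.24. Foxj1, the master transcription factor of motile ciliogenesis, differed by only 0.20.

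Promoters of 4 of the genes described above are shown because they hold a copy of GTTGCC, a short form of the motif bound by RFX factors, which control ciliary genes. Each is the 250 bases before a RefSeq start on the plus strand of GRCm38.p6, at chr8:116504765-116505014 for Dynlrb2, chr3:67373847-67374096 for Mlf1, chr6:55336049-55336298 for Aqp1 and chr16:92292139-92292388 for Kcne2. Capitals mark matches on either strand to GTTGCC and, in Mlf1, also to TAATCC (OTX2) and GTAAACA (FOXJ1). Kcne2 has 2 RefSeq starts, and none of these letters was found before the other one.
Dynlrb2: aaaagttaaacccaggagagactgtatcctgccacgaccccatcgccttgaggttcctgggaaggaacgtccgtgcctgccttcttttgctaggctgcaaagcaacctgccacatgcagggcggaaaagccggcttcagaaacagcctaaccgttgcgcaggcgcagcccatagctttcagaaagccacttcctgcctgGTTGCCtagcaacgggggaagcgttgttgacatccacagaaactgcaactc
Mlf1: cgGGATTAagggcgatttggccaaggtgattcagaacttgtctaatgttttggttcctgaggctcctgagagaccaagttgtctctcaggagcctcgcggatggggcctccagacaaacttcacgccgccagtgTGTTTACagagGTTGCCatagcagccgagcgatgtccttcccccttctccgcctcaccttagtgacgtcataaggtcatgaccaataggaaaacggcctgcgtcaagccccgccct
Aqp1: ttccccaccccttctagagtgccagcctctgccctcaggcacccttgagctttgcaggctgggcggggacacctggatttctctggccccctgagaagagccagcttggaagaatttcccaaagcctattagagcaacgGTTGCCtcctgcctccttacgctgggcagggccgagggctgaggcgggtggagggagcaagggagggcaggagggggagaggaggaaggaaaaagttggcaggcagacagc
Kcne2: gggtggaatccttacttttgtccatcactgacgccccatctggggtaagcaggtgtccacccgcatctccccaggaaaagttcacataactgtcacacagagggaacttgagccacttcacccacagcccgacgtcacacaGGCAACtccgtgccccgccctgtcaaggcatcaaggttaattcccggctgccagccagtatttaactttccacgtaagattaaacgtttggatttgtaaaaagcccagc

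Of the 64 higher genes 48 had a RefSeq promoter among those searched, which left out chromosome 18, where Ttr lies. GTTGCC on either strand was found in 22.4% of their 58 promoters, against 10.5% of the 12454 promoters of tested genes. The OTX2 letters were in 5 of the 58 (8.62%, against 5.21%) and the FOXJ1 letters in 2 (3.45%, against 2.14%), which are small counts. A match describes the letters in this window and is not evidence that a factor binds there.

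Among the 64 higher genes 40 belonged to none of the lists. The largest of these differences was that of Trh, the precursor of thyrotropin-releasing hormone, which stood at 9.35, 8.81, 8.08 and 7.17 on the high arrays and at 4.93, 5.35, 4.36 and 5.03 on the low arrays. Its highest middle value, 6.97, was on 2-month vehicle replicate 3. Trh differed by 3.43 log2 units, but its order within the high set was not that of the choroid plexus mean, since 12-month THC replicate 1 was lowest. That array was also the lowest of the high set for some choroid plexus list members, such as Car12, Igfbp2 and Trpm3.

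Cox8b, a cytochrome c oxidase subunit, differed by 2.73, and Rdh5, a retinol dehydrogenase, by 1.81. Histidine decarboxylase (Hdc), the enzyme that makes histamine, was at 8.04, 7.64, 6.58 and 7.87 against 5.62, 5.95, 5.70 and 5.77, a difference of 1.77. Ecel1, an endothelin-converting enzyme-like protease of neurons, was at 6.38, 7.65, 6.64 and 8.03 against 5.38, 5.17, 5.36 and 5.17. Mia, a small secreted protein, differed by 1.70.

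The 11 lower genes included 2 list members. Tshz2, a teashirt zinc finger protein, was at 7.73, 7.23, 6.62 and 7.83 on the high arrays and at 9.38, 9.29, 8.47 and 9.22 on the low arrays, a difference of -1.74. Its lowest value of all, 6.30, was on a middle array, 2-month vehicle replicate 3. Vwc2l, a secreted protein with a von Willebrand C domain, differed by -1.66 and was lowest on that same array, at 6.96.

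The relaxin receptor Rxfp1 was at 4.86, 4.49, 4.95 and 4.60 against 6.37, 6.11, 6.14 and 6.58, and was detected on 2 of the 4 high arrays. The remaining named genes were Tshz3 (-1.30), the adaptor Grb7 (-1.24), Ly6g6e (-1.23), the perinatal myosin heavy chain Myh8 (-1.09) and the immunoglobulin family member Igsf3 (-1.06). Ccn2, a matricellular protein that in cortex marks the deepest layer, and the nuclear receptor Nr4a2, which was in the dopamine neuron list, each differed by -1.03. Other probes gave smaller differences for Tshz2 (-1.59 to -0.45), Vwc2l (-0.58), Rxfp1 (-0.84), Ly6g6e (-0.27), Myh8 (-0.13 to -0.01), Igsf3 (-0.45) and Ccn2 (-0.88).

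**Figure D2:**
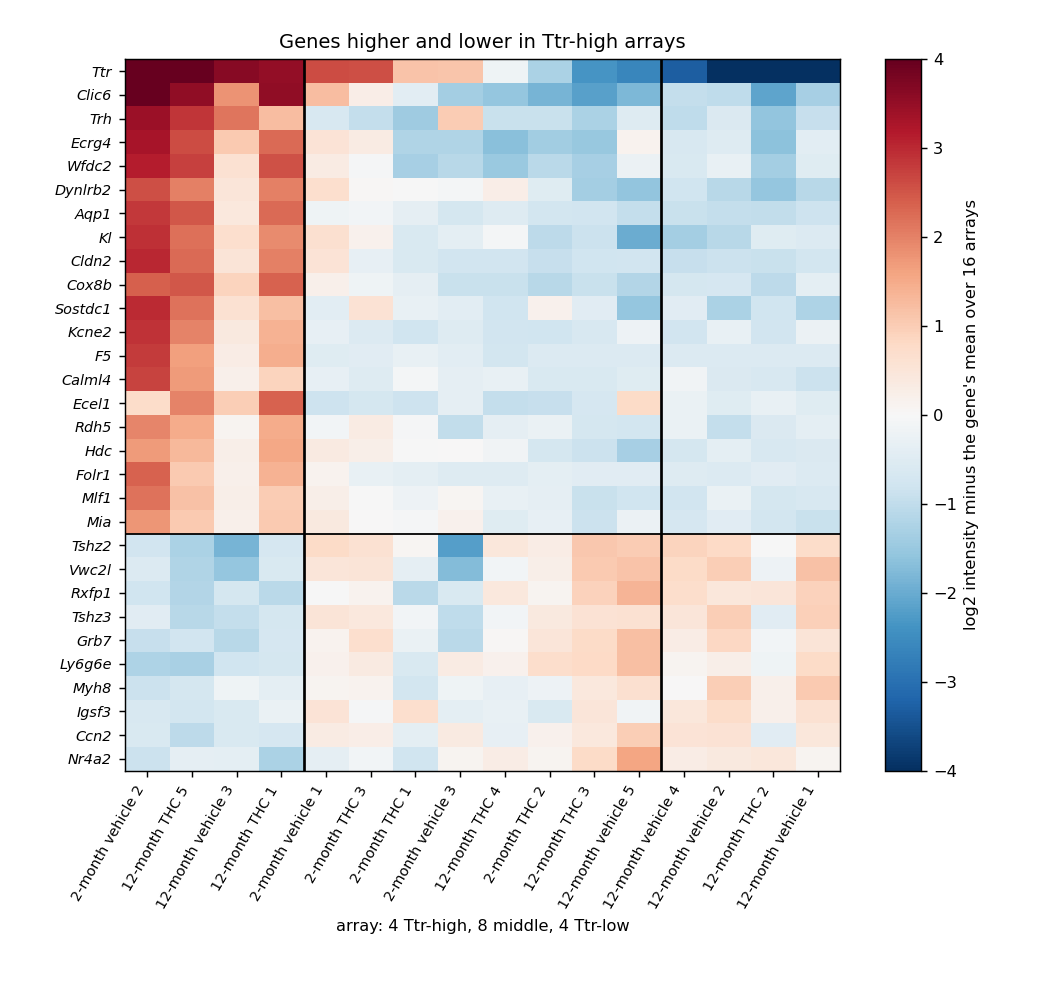
Log2 intensity minus each gene's mean over the 16 arrays, for the 20 genes with the largest positive and the 10 with the largest negative differences, with arrays in order of Ttr and the colour scale capped at 4 log2 units either way, which Ttr exceeds. Most of the 20 genes were raised on the 4 high arrays, least on 12-month vehicle replicate 3, and Tshz2, Vwc2l, Tshz3 and Grb7 were also low on the middle array 2-month vehicle replicate 3.

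Markers of other brain cells and regions were read beside these genes. No member was called for the lists of meninges, blood, thalamus, habenula, striatum, myelin, oligodendrocyte precursors, microglia, astrocytes, endothelium, neurons, CA1, dentate granule cells or immediate early genes. The 16 meningeal genes had a median of -0.20, with 14 lower. The medians of the astrocyte, microglia, endothelium and neuron lists were -0.02, 0.03, -0.04 and 0.00.

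Some lists leaned 1 way without calls or with 1 call. The 9 striatal genes were all higher in the mean, with a median of 0.53, but 12-month vehicle replicate 3 was no higher than the low arrays for Ppp1r1b (9.36, against 9.36 to 9.70), the dopamine-regulated phosphatase inhibitor of striatal neurons. Without the arrays of slide 1 the striatal median was 0.13, without 12-month THC replicate 1 it was 0.32, and without 12-month vehicle replicate 3 it was 0.83.

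The 14 myelin genes had a median of 0.39, with 13 higher, but their mean on 12-month vehicle replicate 3 was 9.03, below all 4 low arrays (9.21 to 9.74). The myelin median was 0.15 without slide 1, 0.18 without 12-month THC replicate 1 and 0.68 without 12-month vehicle replicate 3. All 7 genes of CA2 and CA3 pyramidal cells were higher, with a median of 0.44 and list means of 7.59 to 7.97 against 6.88 to 7.44, and the median was 0.68 without slide 1. Their called member was Amigo2, an adhesion protein, at 9.44, 9.57, 9.12 and 9.47 against 8.90, 7.84, 8.36 and 8.31.

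All 8 neocortical genes were lower, with list means of 8.0 to 8.15 on the high arrays and 8.29 to 8.62 on the low arrays. Cux2, a transcription factor of upper cortical layers, differed by -0.84 with no overlap, but its other probe differed by 0.17. The dentate granule cell gene C1ql2 stood at 8.55 on the array with the most Ttr, 2-month vehicle replicate 2, and at 11.03 to 12.42 on the other arrays of both sets. The dopamine transporter Slc6a3 was at 7.21 and 6.53 on the 2 high THC arrays and at 4.47 to 4.80 on the other 6 arrays of the sets. These lists moved with the sets, and their part in the differences was not tested.

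**Figure D3:**
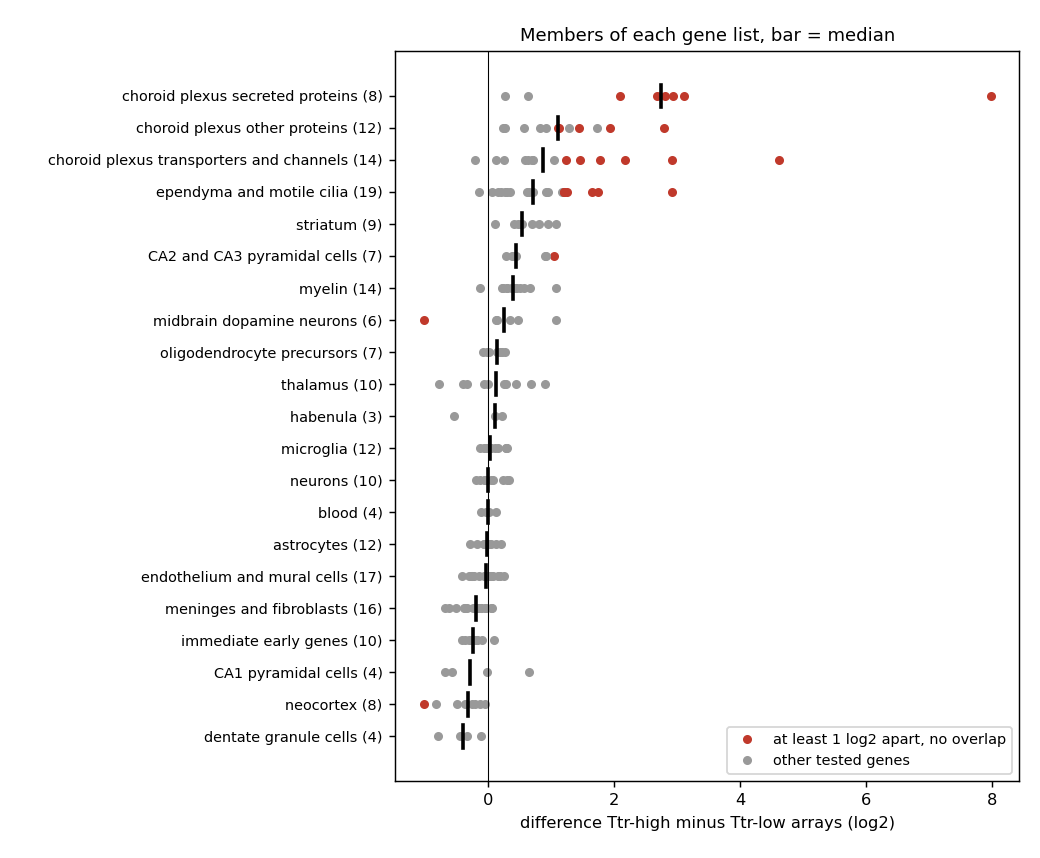
Difference between the Ttr-high and Ttr-low means (log2, horizontal axis) for each tested gene of the 21 lists, with the number tested in brackets, the list median as a bar and genes at least 1 log2 unit apart without overlap in red. The choroid plexus lists reached medians of 2.74, 1.11 and 0.87 and the ependymal list 0.71, while neuron, astrocyte and microglia lists lay within 0.03 of 0.

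The 8 middle arrays entered the choice of sets only through their Ttr values, and their values of all other genes were not used for it. In each probe a slope was fitted with limma, as the log2 change per log2 unit of Ttr. No probe passed an adjusted p of 0.05 in this fit of 22624 probes (0%), and 1813 (8.01%) had an unadjusted p under 0.05. The smallest adjusted p, 0.294, was that of Hdc.

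The slopes of the called genes nevertheless had mostly the sign of their difference. Of the 63 higher genes other than Ttr 58 had a positive slope, with a median of 0.124 and a range from -0.132 to 0.512, and 29 (46%) were positive at an unadjusted p under 0.05. Over all 12019 genes 56.2% of the slopes were positive, the median was 0.00835, and 5.24% were positive at that level. Of the 11 lower genes, 10 had a negative slope, with a median of -0.158, and 3 (27.3%) were negative at that level, against 3.11% of all genes. These counts are descriptions, since genes that vary together over 8 arrays are not separate evidence. Some higher genes, such as F5, Slc16a8 and Steap1, were not detected on any middle array, so the sign of their slopes carries little. When the slope was instead taken on the mean of the other choroid plexus genes, and those genes were left out of the count, 39 of 47 higher genes had a positive slope but only 4 of the 11 lower genes a negative one.

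Clic6 had a slope of 0.512 ± 0.0871 (SE; limma adjusted p = 0.375), Kl 0.337 ± 0.0668 (limma adjusted p = 0.414) and Dynlrb2 0.332 ± 0.0613 (limma adjusted p = 0.375). Hdc, with a slope of 0.276 ± 0.0370, ran from 5.02 to 6.70 over the middle arrays and correlated with Ttr at r = 0.965, a description over 8 arrays. Nr4a2 had a slope of -0.280 ± 0.0700 (limma adjusted p = 0.540). Trh (0.0584), Kcne2 (0.0029) and F5 (0.0244) had slopes near 0, and Ecel1 had a negative one (-0.132). Of the 8 middle arrays Trh was detected on 6, but Kcne2 on 1 and F5 on 0. The slopes of Kcne2 and F5 therefore cannot show whether these genes follow Ttr.

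Over the 33 choroid plexus genes 25 slopes were positive, with a median of 0.0374. The ependymal list had 15 of 19 positive (median 0.0247), and the meningeal list 1 of 16 (median -0.137). The 7 CA2 and CA3 genes were all positive (median 0.0639), as were 13 of 14 myelin genes (median 0.107). Age moved with Ttr here, since the 5 middle arrays of 2-month mice had Ttr between 8.97 and 12.85 and the 3 of 12-month mice between 7.62 and 10.07. With age as a term 52 of the 63 higher genes had a positive slope (median 0.112) and 9 of the 11 lower genes a negative one (median -0.0745). Over all 12019 genes 6545 slopes were positive in that fit. No probe passed, and 870 of 22624 probes (3.85%) had an unadjusted limma p under 0.05, against 1813 (8.01%) without age. The smallest adjusted p was 0.772 (limma).

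**Figure D4:**
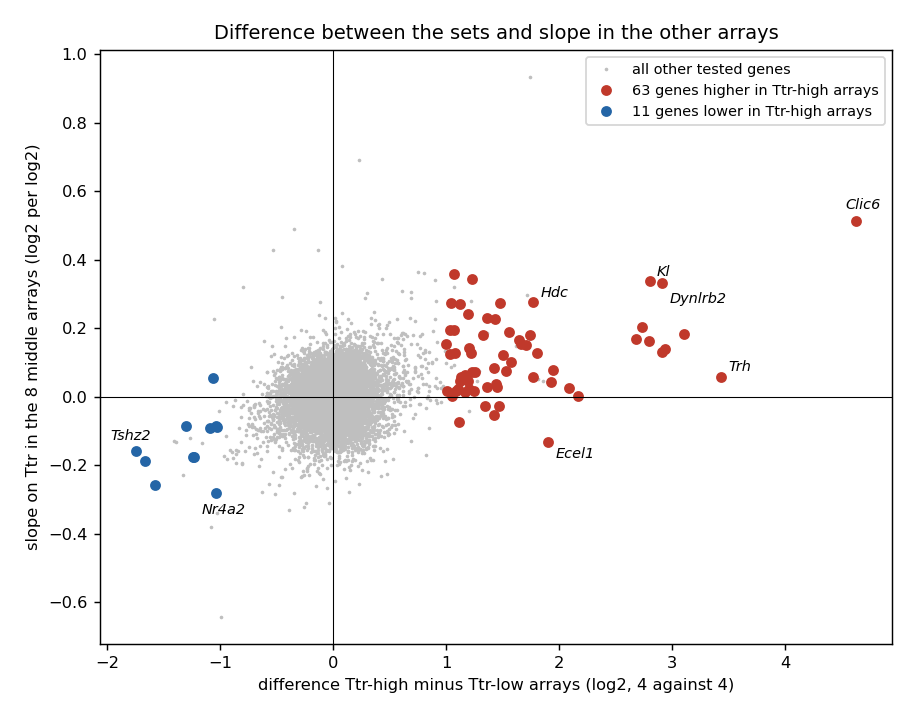
Difference between the Ttr-high and Ttr-low means (horizontal, log2) against the slope on Ttr in the 8 middle arrays (vertical, log2 per log2 unit) for each tested gene other than Ttr. Of the 63 higher genes (red) 58 lie above 0, with Clic6 at 0.512, and 10 of the 11 lower genes (blue) lie below 0.

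Genes whose pattern over the middle arrays was most like that of Ttr were, by Pearson's r over 8 arrays, Rhot1 (0.981), Rpa1 (0.977), Rad50 (0.965) and Hdc (0.965), beside 1 unnamed gene model. Rhot1, a mitochondrial transport GTPase, Rpa1, a single-strand DNA binding protein, and Rad50, a DNA repair protein, had small slopes of 0.0733, 0.0721 and 0.115. Their differences between the sets were only -0.04, -0.03 and 0.16. Of the genes closest to Ttr in the middle arrays, Hdc alone was therefore among the 64.

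The differences were also read inside single treatment groups, where age and treatment were the same. As the sets do not overlap for a called gene, its direction in such a pair is fixed by the choice. Its size is tied to the choice as well, since the pairs are drawn from the arrays of the sets. The sizes are therefore given as descriptions only. Between 12-month vehicle replicates 3 and 4, both on slide 2, the 64 higher genes had a median of 0.83 log2 units, with 28 of them reaching 1, and the 11 lower genes a median of -1.19. Among 12-month THC arrays, which lie on slides 1, 4 and 3, replicates 1 and 5 exceeded replicate 2 by a median of 1.62 for the higher genes, with 51 reaching 1, and differed by -0.77 for the lower genes.

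The choroid plexus genes had a median of 0.45 in the vehicle pair and of 1.29 in the THC arrays. Clic6 differed by 2.75 in the vehicle pair and by 5.65 in the THC arrays, and Dynlrb2 by 1.30 and 3.56. Tshz2 differed by -2.76 and -0.94. The myelin gene Opalin differed by -0.96 in the vehicle pair and by 1.02 in the THC arrays. These rest on 2 and 3 arrays, the latter on different slides, and the contrast between them was not tested. Within slide 1 the medians of the higher and lower genes were 1.49 and -1.41, and within slide 2 they were 1.43 and -1.20.

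**Figure D5:**
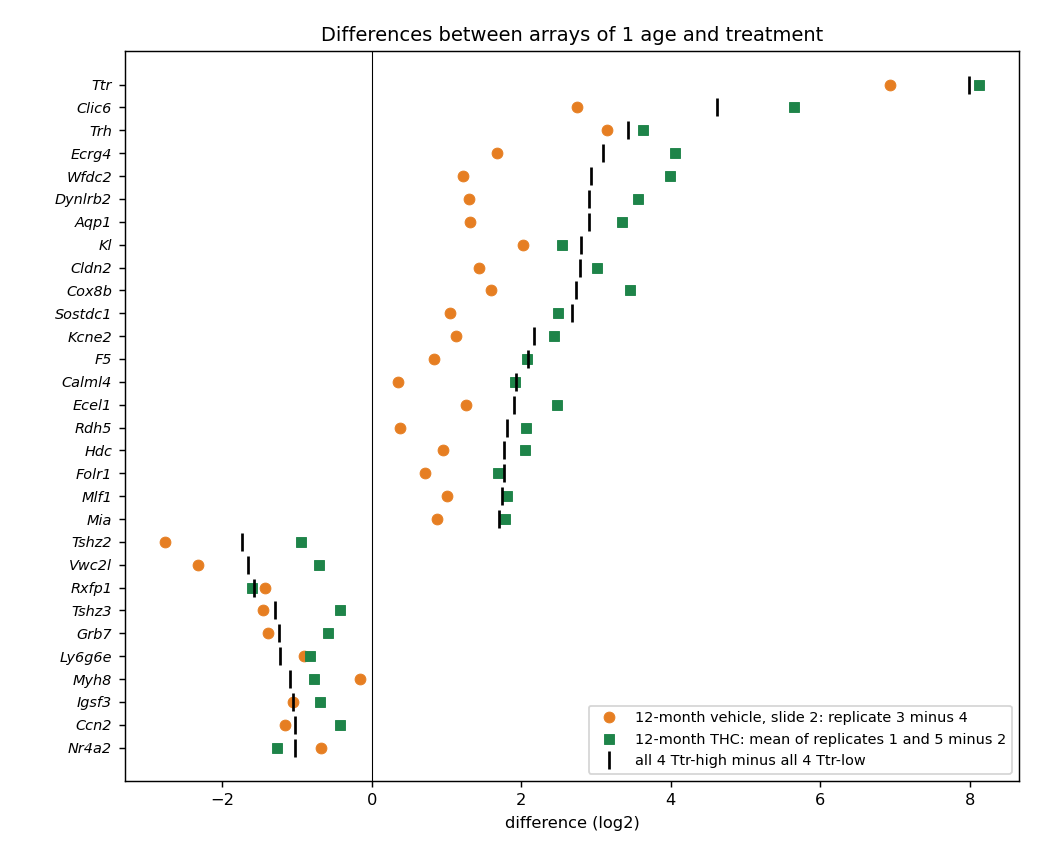
Differences (log2) of the 20 higher and 10 lower named genes between 12-month vehicle replicates 3 and 4 on slide 2 (circles), between 12-month THC replicates 1 and 5 and replicate 2 (squares), and between all 4 Ttr-high and all 4 Ttr-low arrays (bars). Clic6 was at 2.75, 5.65 and 4.62 in this order, and Tshz2 at -2.76, -0.94 and -1.74.

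Ttr varied widely inside the 12-month groups. Its mean was 8.02 ± 3.38 (SD, n = 5) in 12-month vehicle mice and 10.38 ± 3.64 (SD, n = 5) in 12-month THC mice, with ranges of 5.52 to 13.90 and 5.90 to 14.30. In 2-month mice it was 12.9 ± 1.56 (SD, n = 3) with vehicle and 11.05 ± 1.95 (SD, n = 3) with THC. Each group overlapped with the others in Ttr.

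The study's own comparisons were fitted with limma over all 16 arrays to see where the choroid plexus genes stood. No probe passed an adjusted p of 0.05 for 12 against 2 months in vehicle mice, for THC at 12 months or for THC at 2 months (0% each), and 1032 (4.56%), 1080 (4.77%) and 1384 (6.12%) had an unadjusted p under 0.05. With slide as a fixed block 2 probes passed for age and 31 for THC at 12 months. The 34 choroid plexus genes had a median of -0.74 for age, with 27 lower, of 0.30 for THC at 12 months, with 26 higher, and of -0.64 for THC at 2 months, with 32 lower. The medians over all genes were -0.003, -0.018 and 0.004. The comparisons share arrays, so these medians are not independent of each other.

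Single arrays, the Ttr-high arrays and the slides moved these medians. Without the 4 Ttr-high arrays they were -0.04 for age, -0.18 for THC at 12 months and -0.05 for THC at 2 months. Without 2-month vehicle replicate 2 the median of the choroid plexus genes was 0.01 for age and -0.05 for THC at 2 months. In the 12-month THC comparison it was 0.04 without THC replicate 5, 0.07 without THC replicate 1 and 0.46 without THC replicate 2, 3 or 4. With slide as a fixed block the medians were -0.77 for age, 1.10 in 12-month mice given THC and -0.40 in 2-month mice given THC, and with slide as a random block they were -0.76, 0.75 and -0.53.

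Ttr itself differed by 2.36 ± 1.63 log2 units (SE; limma adjusted p = 0.916) for THC at 12 months without a block. This was 5.84 with slide as a fixed block and 4.22 with slide as a random block. It was 1.38 without THC replicate 5, 3.83 without vehicle replicate 3 and 1.40 without the 4 Ttr-high arrays. For age and for THC at 2 months Ttr differed by -4.87 ± 1.88 and -1.84 ± 2.11 (SE) without a block. With quantile normalization alone the choroid plexus medians were -0.31, 0.13 and -0.36 in the 3 comparisons.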

How the data were processed

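Total RNA of mouse hippocampus was labelled as biotinylated cRNA and hybridized to 16 Illumina bead arrays of 45281 probes. The authors deposited a log2 scanner intensity per probe and array without normalization between arrays, and a detection p-value beside it, per the file headers. They also deposited log2 series matrix values, which the values show to be quantile normalized scanner intensities (largest difference 0.00713). The submitters' processing notes name Partek without its steps. Text stood in 26 detection cells of 1 array, and these were taken as missing.

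The series matrix value of Ttr ranked the arrays. All other values were recomputed with limma 3.58.1 (R 4.3.3): neqc background correction from the detection p-values with an offset of 16, quantile normalization and log2. The 22625 probes detected (p under 0.05) on 3 or more arrays were kept. Of all probes 34885 had 1 gene symbol, 18 several and 10378 none. A gene is its probe with the highest mean over the arrays (12020 genes).

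The difference between sets has no test. Slopes on Ttr in the 8 middle arrays and contrasts between the 4 groups were fitted with lmFit and eBayes and adjusted by Benjamini-Hochberg over all kept probes. Where a probe was not detected on any array of the lower set, its fold is a bound against the higher of its own signal and the lowest signal of a detected probe on each array. The fits were tested on simulated data.

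The sets, gene lists and naming rule were chosen with earlier results of these data known. Named were the 20 largest positive and 10 largest negative differences without overlap, detected on all arrays of the brighter set, up to 4 genes per list with the largest difference, and the 5 genes each with the smallest slope p and the highest r. Further list members and genes outside this rule were chosen after their values were seen. Promoters are from RefSeq (GRCm38.p6), with chromosome 18 left out.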

Additional observations from a re-analysis of the deposited data

Results flagged for a closer look

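The values of the named genes were searched for arrays far from the rest of their set or group, by Dixon's criterion at its 95% level. Of 120 sets of values 15 held such an array, and chance alone flags about 1 in 20. That rate is no yardstick here, since the arrays and genes were chosen by the same differences, the sets share arrays and the genes vary together.

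In 12-month vehicle mice replicate 3, the array of this group in the Ttr-high set, stood far above the other 4 for 7 genes, which restates the choice of this array and of these genes. Its Ttr was 13.9 log2 units, against 5.52 to 7.62. Its Clic6 was 8.54 (others 4.92 to 5.78), its Trh 8.08 (4.93 to 5.44) and its Aqp1 5.88 (4.48 to 4.62). Its Cldn2 was 5.73 (4.3 to 4.48), its F5 5.29 (4.44 to 4.46) and its Folr1 5.15 (4.4 to 4.52). The same array stood far below the other 4 for Tshz2 at 6.62 (9.22 to 9.52), Vwc2l at 7.13 (9.45 to 9.85) and Tshz3 at 8.42 (9.87 to 10.36).

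Within the Ttr-high set this array was lowest for Cox8b, at 6.85 against 8.33 to 8.44, and 12-month THC replicate 5 was lowest for Ccn2, at 9.24 against 9.61 to 9.68. Within the Ttr-low set 12-month THC replicate 2 was lowest for Ecrg4 at 5.26 (others 6.25 to 6.45), for Tshz2 at 8.47 (9.22 to 9.38) and for Ccn2 at 9.85 (10.76 to 10.87).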

How the results depend on the processing

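Counts over the sets depended on how low signals were treated. Quantile normalization without background correction and the authors' series matrix values each gave 16 higher genes (64 here), 3 lower (11 here) and 9 choroid plexus genes higher (17 here). Detection at p under 0.01 on at least 8 arrays gave 41 higher and 9 choroid plexus genes. A minimum difference of 0.5 gave 140 higher and 67 lower. The next brightest probe, which only genes with several probes have, gave 12 higher, 1 lower and 4 choroid plexus genes. Sets of 5 arrays gave 3 lower and 10 choroid plexus genes, and leaving out slide 1 or the 2-month array gave 17 lower in either case. With each array of the sets left out, higher genes numbered 58 to 96 (most without 12-month vehicle replicate 3), lower genes 9 to 27 and choroid plexus genes 15 to 20. The slope on Ttr passed adjusted p 0.05 (limma) for 0 to 1 probes with a middle array left out, the 1 being without 2-month THC replicate 3 (adjusted p 0.0451, against 0.0451 to 0.707 over these fits). Age in vehicle mice gave 3 probes under quantile normalization alone and with series matrix values, 2 without a filter, with the stricter filter and with slide as a block, whether fixed or random, and 0 to 1 with an array left out (1 without 12-month vehicle replicate 3). THC at 12 months gave 31 probes with slide as a fixed block. Both THC comparisons gave 0 with each array left out. The cause of these changes was not tested. No named gene called higher or lower turned its direction under the alternatives run. With arrays left out or with smaller sets this was fixed in advance, since the sets of a called gene do not overlap. The habenula list median was -0.20 without a filter (0.10 here), and that of immediate early genes was 0.33 without slide 1 (-0.25 here). Those of striatum and myelin were 0.13 and 0.15 without slide 1 (0.53 and 0.39 here). No paired analysis was possible because the labels give no replicate numbers and those used here only name arrays. Of the choroid plexus genes, several were near or below detection on most arrays, which limits how small a difference could be read there.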

Other observations

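Some genes called higher lay outside every list, and several of them are known from pyramidal neurons or cilia. They were chosen after their values were seen. The serine protease inhibitor Spink8 differed by 1.07 log2 units between the sets with a slope of 0.358 in the middle arrays, the adhesion protein Nectin3 by 1.44 with a slope of 0.226, and lipoprotein lipase (Lpl) by 1.37 with a slope of 0.23. Among genes of the axoneme, Cfap65 differed by 1.26 with a slope of 0.0728, and Dnali1, a dynein light intermediate chain, by 1.12 with a slope of 0.0456. Lgals3, a galactose-binding lectin, differed by 1.36 with a slope of 0.0274.

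Tomm22, a subunit of the mitochondrial import receptor, had one of the 5 smallest slope p-values in the middle arrays, with a slope of 0.692 log2 units per log2 unit of Ttr. It was at 6.66, 6.38 and 6.44 on 2-month THC replicate 2, 12-month THC replicate 3 and 12-month vehicle replicate 5 and at 9.09 or more on the other 5 middle arrays. The tight junction protein occludin (Ocln) had a slope of 0.277 and Prr36 a slope of -0.322.

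The dentate granule cell gene C1ql2 was at 9.13 on 12-month vehicle replicate 5 and at 8.55 on 2-month vehicle replicate 2, while the other 14 arrays were at 11.03 to 12.42. The dopamine transporter Slc6a3 reached 9.53 on 2-month THC replicate 1, its highest value on any array, and that array also held Otx2 at 7.35 and the habenula gene Pou4f1 at 6.09.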
